A study of Mus musculus with 4 samples.

Results

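The H3K36 methyltransferase genes are 8 mouse genes whose products carry a SET domain and have been reported to methylate lysine 36 of histone H3: Setd2, Nsd1, Nsd2, Nsd3, Ash1l, Setd3, Smyd2 and Setmar. Their peaks of trimethylated lysine 36 (H3K36me3) were chosen by name: a peak was a member when the authors' annotation gave it to 1 of these genes and did not class it as intergenic. The annotation writes Nsd2 as Whsc1 and Nsd3 as Whsc1l1. By this rule 55 of the 36820 peaks of the wild-type list and 175 of the 95750 peaks of the knockout list were members. The peaks come from chromatin immunoprecipitation and sequencing (ChIP-seq) on neural progenitor cells of the forebrain of C57BL/6 embryos at embryonic day 13. Wild-type (WT) embryos stood beside embryos with a brain-specific deletion of the histone variant H2A.z1 (H2A.z1cKO, here cKO). The line that drives the deletion, the deleted segment and the number of embryos per library are not given in the sources used here. Each genotype had 1 ChIP library and 1 input library, so there was no spread between replicates, and every difference below is between 2 libraries with no test.

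H3K36 methylation is built in steps. NSD1, NSD2, NSD3 and ASH1L add the lower methylation states, and SETD2 rides with elongating RNA polymerase II and adds the trimethyl state over the bodies of transcribed genes. The mark is therefore low at the start of a transcribed gene and higher toward its 3′ end. SETD3 is best known for methylating a histidine of actin, SMYD2 methylates p53 and other proteins besides histones, and SETMAR carries a SET domain that is fused to a transposase in primates but not in mouse. A gene's own H3K36me3 describes how its body was marked and does not measure its protein. In chromatin pooled from many cells, a mark in more cells and more mark per cell cannot be told apart.

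The sequences just before these genes are shown first, because no peak of either genotype lay there. RefSeq windows of GRCm38.p6, an assembly on the mm10 chromosomes, were matched for 4 of the 8 genes: Setd2, Setd3, Smyd2 and Setmar. Printed 5′ to 3′ on the gene's strand are the bases of the window that lie before the RefSeq gene span, for Setd2 as the gene of the trimethylating enzyme, for Setd3 as the marked gene with the least WT coverage and for Setmar as a gene with no WT peak. Capitals mark GGGCGG (the Sp1 box) and CCAAT, each on either strand, and overlapping copies run together.
Setd2, chr9:110532347-110532499, plus strand: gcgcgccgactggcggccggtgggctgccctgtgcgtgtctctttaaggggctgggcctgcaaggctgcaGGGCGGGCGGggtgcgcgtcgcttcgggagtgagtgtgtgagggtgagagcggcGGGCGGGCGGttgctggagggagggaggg
Setd3, chr12:108179346-108179534, minus strand: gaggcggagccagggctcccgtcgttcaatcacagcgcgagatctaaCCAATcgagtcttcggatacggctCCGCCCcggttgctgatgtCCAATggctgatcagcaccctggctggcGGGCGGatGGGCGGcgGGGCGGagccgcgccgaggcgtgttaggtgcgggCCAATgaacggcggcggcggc
Setmar, chr6:108064795-108065044, plus strand: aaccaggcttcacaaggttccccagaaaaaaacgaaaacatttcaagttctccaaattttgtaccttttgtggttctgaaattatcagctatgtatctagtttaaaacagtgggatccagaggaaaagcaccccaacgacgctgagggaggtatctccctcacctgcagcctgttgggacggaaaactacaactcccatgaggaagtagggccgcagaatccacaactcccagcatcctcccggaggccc

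The printed Setd2 stretch of 153 bases held 4 copies of GGGCGG, and the Setd3 stretch of 189 bases held 4 copies of GGGCGG and 3 of CCAAT. The Setmar stretch held neither. Counted over the full 250 bases before the annotated transcript start, Setd2 had 31 CpG dinucleotides, the first Setd3 window 31, Smyd2 34 and Setmar 6. The median over 21263 windows of that length was 10, so Setd2, Setd3 and Smyd2 have CpG-rich starts and Setmar does not. GGGCGG was present in 42.6% of all these windows and CCAAT in 35.4%. TATAAA, found in 11.6% of windows, and the ETS letters CCGGAAG, found in 8.98%, were in no window of the 4 genes.

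Neither the CpG-rich nor the CpG-poor starts carried a peak. A WT peak touched 0.108% of all windows and a cKO peak 0.663%, so an unmarked start was the common state in both lists. The nearest peak to the Setd2 window lay 14805 bp away in WT and 14686 bp away in cKO. For all 8 genes, the 1000 bp on either side of the RefSeq start held no peak in either genotype.

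The peak lists themselves differed widely. The ChIP libraries held 31984670 tags in WT and 32927164 in cKO, yet peaks covered 13.3 Mb in WT and 69.1 Mb in cKO. Fragments were modelled at 152 bp in WT and 185 bp in cKO, which sets the narrowest peak of each list. The pileup (extended tags at a peak's summit), the fold over input and the −log10 q are the authors' own values for each peak and are used only within 1 list. The progenitor label was checked against markers. A peak over the body was found in both genotypes for 7 of 8 progenitor genes and for 0 of 6 blood and vessel genes. Of 5 neuronal genes, 2 had one in WT and 3 in cKO. Since 38.0% of genes of at least 5 kb had a peak in WT and 52.1% in cKO, the neuronal counts lay near background. Of at least that length were 5 of the 8 progenitor, 4 of the 5 neuronal and 4 of the 6 blood and vessel genes. Median WT coverage was 21.3% over the progenitor genes and 0 over the neuronal genes. Yet the neuronal Tubb3 stood at 27.6%, and the progenitor gene Fabp7 had no peak. The progenitor and neuronal lists had median gene lengths of 8.94 and 52.1 kb, and the part of length in their coverage was not tested. Of 3 mesenchyme genes, Pdgfra had 1 cKO peak over 0.414% of its body.

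The authors' annotation left out many peaks inside the methyltransferase genes, because each peak carries a single gene name. Over the RefSeq gene bodies lay 109 WT and 284 cKO peaks, of which 54 and 110 were named for another gene. Ash1l showed this most, with 21 WT and 57 cKO peaks over its body and 1 in each list under its name. The others were named for the small predicted genes Gm24403 and Gm26465 or for the neighbour Rusc1. In Nsd1, 19 of 32 WT and 35 of 67 cKO peaks carried the name of the neighbour Rab24. Each gene is therefore described over its whole body, with its member count beside it. The map of peaks along the genes shows where they lay.

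**Figure D1:**
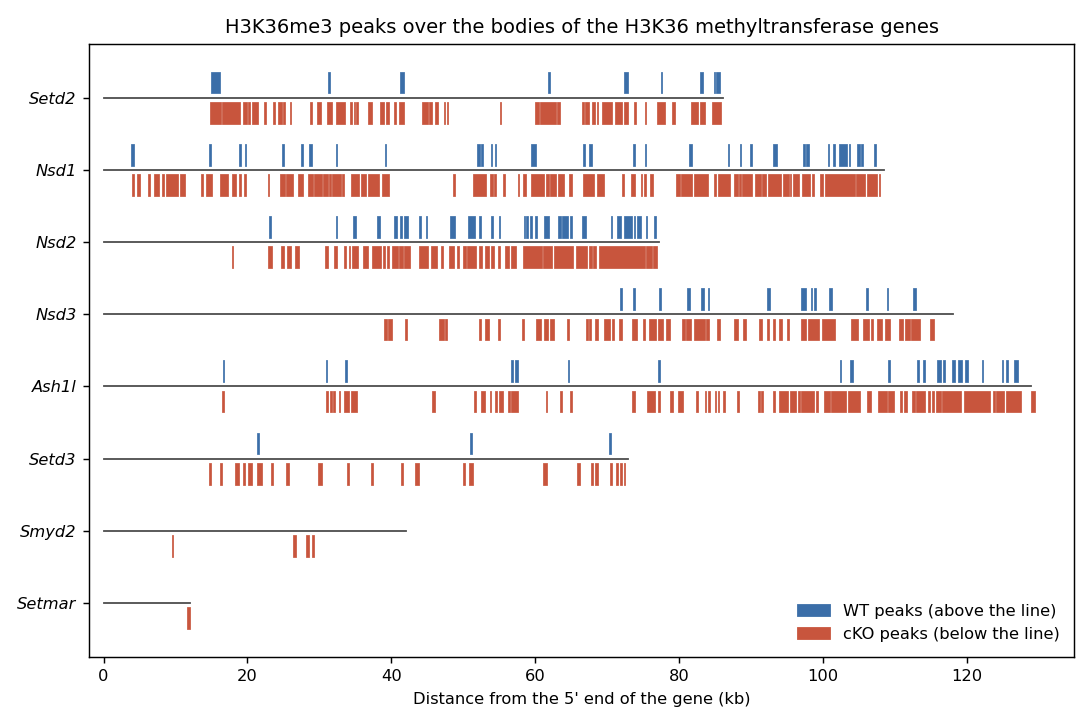
Position of every H3K36me3 peak over the 8 gene bodies, in kb from the 5′ end, with WT peaks above and cKO peaks below each gene's line, 1 ChIP library per genotype. All 8 genes are free of peaks at the left edge, and Smyd2 and Setmar have peaks below the line alone.

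Of the 8 genes, 6 had a peak over the body in WT and 8 in cKO, against 38.0% and 52.1% of the 16853 protein-coding genes of at least 5 kb. Coverage, the percentage of a gene body inside peaks, was higher in cKO in all 8 genes. In 6 of the 8 it was higher by at least 10 percentage points, the size rule used here, and in none was it lower. Over the 16853 genes, 32.6% were higher by this rule and 0.00% lower. Many of those genes had no peak at all, so the nearer background is the 6400 genes with a WT peak, of which 75.3% were higher, beside 6 of the 6 methyltransferase genes with a WT peak. The median difference of those 6 genes was 25.4 points against 22.9 points for the 6400 (quartiles 10.1 and 37.1). All 6 are long genes, and over the 1834 genes of 40 to 130 kb with a WT peak the median was 15.0 points (quartiles 6.62 and 25.6). In total the 646 kb of methyltransferase gene bodies were covered over 5.89% in WT and 29.3% in cKO, a ratio of 4.97, against a ratio of 5.18 for the whole lists. The median of the 6 genes thus lay near that of all marked genes and near the upper quartile of marked genes of like length.

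The cKO list was also matched to WT in peak number or in covered length. With the 36820 strongest cKO peaks by −log10 q, the WT number, 4 of the 8 genes were higher by 10 points and the median difference was 10.7 points. This list still covered 44346545 bp against 13322653 bp in WT. The share of all genes called with it was not computed, so the count of 4 has no background beside it. A length-matched cKO list was made of the strongest cKO peaks, as many as gave the covered length of the WT list. With it, none of the 8 genes was higher by 10 points and none lower, against 4.81% and 2.21% of all genes. Many of those genes had no peak, and a gene without a WT peak cannot be lower. The shares over the genes with a WT peak were not computed for the length-matched list. This list equalises the total covered length by construction, so it shows the place of a gene among the strongest peaks and not whether its coverage differed. The plot of coverage by gene gives WT, full cKO and length-matched cKO values for each gene.

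**Figure D2:**
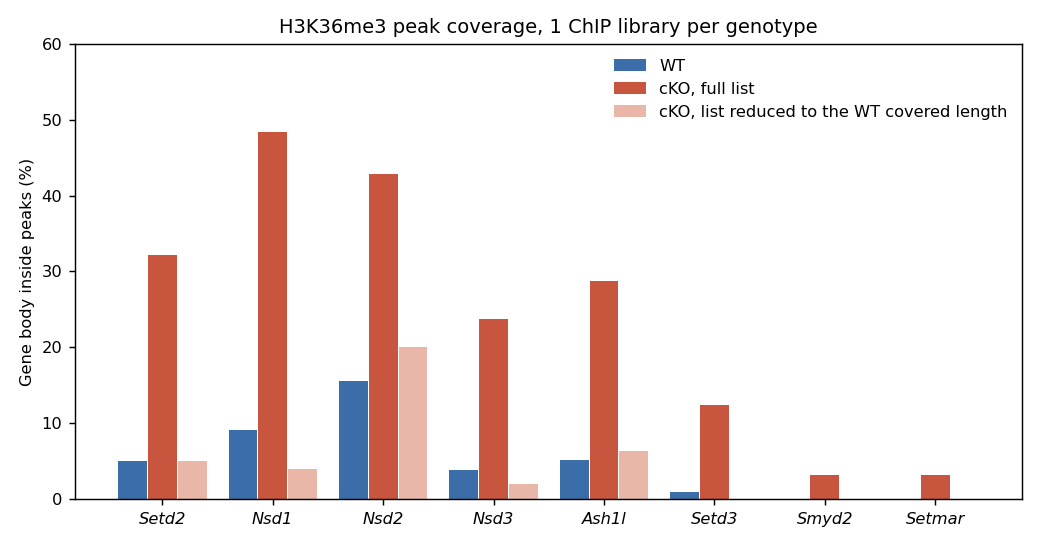
Percentage of each gene body inside H3K36me3 peaks, as bars for WT, for the full cKO list and for the length-matched cKO list, with 1 ChIP library per genotype and no error bars. The full cKO bars stand above WT in every gene, from 3.15% in Setmar to 48.4% in Nsd1, and the length-matched bars run from 0 to 20.1% in Nsd2.

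Setd2, whose product is the main enzyme of H3K36 trimethylation, lies on chromosome 9 (110532500 to 110618633, plus strand, 86134 bp). It had 6 WT and 42 cKO members, and 9 and 45 peaks over the body. The 9 WT peaks were spread unevenly. A single one lay in part 1 of the body when it was cut into 5 equal parts numbered from the 5′ end, and 3 lay in the last few kb. The widest WT peak, which also had the largest −log10 q of the gene, was chr9:110547401-110548724 (1324 bp, pileup 26, −log10 q 9.49). Its midpoint lay 15.6 kb inside the gene, where the annotation places the promoter of another transcript. It was the first peak of the gene in WT, and the first in cKO lay at 15.5 kb.

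The strongest cKO peak of Setd2, chr9:110593228-110595405, was 2178 bp wide with a pileup of 66 and a −log10 q of 46.9. This was the largest −log10 q over any methyltransferase gene and higher than 99.6% of the cKO list. The WT peak beneath it was 364 bp wide with a −log10 q of 4.43. The 3 strongest cKO peaks of Setd2 all overlapped a WT peak. The widest, chr9:110548991-110551456 (2466 bp, −log10 q 14.3), lay in exon 3 of 21 and had no WT partner. Within the cKO list, the 8 Setd2 peaks with a WT partner had a median pileup of 40.5 and the 37 without one 21.

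Setd2 differed in where its coverage lay. Its WT coverage over the 5 parts was 7.69, 1.70, 2.70, 2.11 and 10.98%, and its cKO coverage was 12.97, 46.9, 29.1, 27.5 and 44.6%. Part 2 was thus the most covered in cKO and the least covered in WT. The midpoint of the median WT peak stood at 84.4% of the gene length and that of the median cKO peak at 51.8%. Over the gene, 98.9% of the WT peak bases lay inside cKO peaks. In the length-matched list, Setd2 stood at 5.05% in cKO against 5.03% in WT.

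The 3 NSD genes encode a family of large nuclear enzymes, with PWWP and PHD domains, that dimethylate H3K36. Nsd2 had the highest WT coverage of the 8 genes and Nsd1 the highest cKO coverage. Nsd3 was the least covered of the 3 in both genotypes.

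Nsd1, the gene mutated in Sotos overgrowth syndrome, lies on chromosome 13 (55209782 to 55318325, plus strand, 108544 bp). It had 13 WT and 32 cKO members, and 32 and 67 peaks over the body. Coverage was 9.06% in WT and 48.4% in cKO, a difference of 39.3 points, which was larger than in 78.7% of the genes with a WT peak. Its peaks began nearer to the start than in any other of the 8 genes, at 4.02 kb in WT and 4.14 kb in cKO. The first WT peak, chr13:55213586-55214019 (434 bp, −log10 q 5.61), lay in exon 2 of 23 and was the widest WT member. The strongest WT member, chr13:55234608-55234827, had a −log10 q of 11.1.

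The widest peak of Nsd1 was classed to its last exon in both genotypes. That class held 5 WT peaks with 2125 bp and 4 cKO peaks with 7073 bp. Among them was the cKO peak chr13:55310032-55314269 (4238 bp, −log10 q 43.1), named Rab24 by the annotation, which overlapped 4 WT peaks. Of these 4 WT peaks, 2 were classed to intron 22 (506 bp), so the 7073 bp do not lie in the exon alone. Part 5 of the body was covered over 20.1% in WT and 73.1% in cKO. Intron 2 of 22 held more cKO bases in total, 8212 bp in 13 peaks, among them the widest cKO member, chr13:55218436-55220150 (1715 bp). The strongest cKO member, chr13:55245569-55246307 (−log10 q 23.4), lay in exon 5 of 23. Neither of these last peaks had a WT partner. In the length-matched list, Nsd1 stood at 3.90%, below its WT value.

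Nsd2, which lies in the region deleted in Wolf-Hirschhorn syndrome, is on chromosome 5 (33820676 to 33897966, plus strand, 77291 bp). It had 24 WT and 36 cKO members, and 30 and 39 peaks over the body, the smallest ratio of peak number among the marked genes. Coverage was 15.6% in WT and 42.8% in cKO. Its WT coverage was higher than that of 94.2% of genes of at least 5 kb, and in the length-matched list its cKO coverage, 20.1%, stood further above WT than that of the other 7 genes. Parts 1 and 5 stood at 0 and 33.6% in WT and at 0 and 86.6% in cKO. The first 17.9 kb of Nsd2 was thus free of peak midpoints in both genotypes, and each part was covered more than the one before it in both.

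The broadest peak over any methyltransferase gene was the Nsd2 cKO peak chr5:33889576-33895922 (6347 bp, −log10 q 41.2), which overlapped 5 WT peaks. One of these, chr5:33893088-33894096 (1009 bp, −log10 q 17.7), was the strongest WT peak over the 8 genes. Both carry the name of a microRNA gene in the annotation. Among the members, the widest and strongest WT peak was chr5:33871392-33872325 (934 bp, −log10 q 13.8). The widest cKO member, chr5:33878968-33881678 (2711 bp), overlapped 4 WT peaks, and the strongest, chr5:33857964-33859235 (1272 bp, −log10 q 44.5), lay in intron 4 of 20. When peaks within 3 kb of each other were joined, the longest cKO domain of Nsd2 ran over 46.5 kb, which is 60.1% of the gene, and the longest WT domain over 12.7 kb.

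Nsd3 on chromosome 8 (25601601 to 25719667, plus strand, 118067 bp) had 8 WT and 35 cKO members, and 14 and 48 peaks over the body. Coverage was 3.83% in WT and 23.7% in cKO. All 14 WT peaks lay in parts 4 and 5, and the first stood 71.9 kb from the 5′ end. The first cKO peak stood at 39.2 kb, the largest such gap among the 8 genes. Parts 1 to 5 were covered over 0, 7.21, 23.2, 41.6 and 46.6% in cKO. The strongest cKO peak, which was also the widest, was chr8:25701436-25703362 (1927 bp, −log10 q 35.3). The strongest WT member, chr8:25702411-25702864 (454 bp, −log10 q 9.42), lay inside it. The widest WT member, chr8:25698620-25699301 (682 bp), was classed at the promoter of another transcript. In the length-matched list Nsd3 stood at 2.00% in cKO, below WT.

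Ash1l, the mammalian counterpart of a Drosophila Trithorax-group gene, encodes a very large enzyme for H3K36 dimethylation. It lies on chromosome 3 (88950414 to 89079375, plus strand, 128962 bp). Coverage was 5.17% in WT and 28.8% in cKO. The single WT member, chr3:88966959-88967216 (258 bp, −log10 q 6.33), and the single cKO member, chr3:88966918-88967183 (266 bp, −log10 q 5.10), overlapped in intron 1 of 26. They were the 1 WT and 1 cKO peak of part 1 of the gene. The member rule alone would thus show no difference for Ash1l, while the body counts were 21 and 57.

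Ash1l had the largest share of its covered bases in part 5 among the genes marked in WT. Part 5 held 70.0% of its WT covered bases and 47.0% of its cKO covered bases, and was covered over 18.1% and 67.6%. The widest cKO peak was chr3:89070088-89073664 (3577 bp, −log10 q 28.6) near the 3′ end. Exon 2 of 27 held 6 cKO peaks with 2622 bp. One WT peak of Ash1l, chr3:89014953-89015104 in intron 4 of 26, had no cKO partner, and it was the single such peak over all 8 genes. It was 152 bp wide, the narrowest width the WT list allows, with a pileup of 15 and a −log10 q of 4.93.

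Setd3 on chromosome 12 (108106431 to 108179345, minus strand, 72915 bp) was the least covered of the genes marked in WT. Its 3 WT peaks covered 0.894% of the body and its 23 cKO peaks 12.4%. The 3 WT peaks were 162, 215 and 275 bp wide with −log10 q values of 3.64, 4.91 and 4.36, all below the median of 7.06 for the WT list. The widest of them, chr12:108157680-108157954, lay inside the widest cKO peak, chr12:108157316-108158019 (704 bp, −log10 q 7.89). In contrast to Setd2, none of the 3 strongest cKO peaks over the Setd3 body had a WT partner, and its median cKO pileup was 20 with a partner and 24 without.

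Coverage of Setd3 showed no even climb along the gene. The 5 parts stood at 0, 1.89, 0, 1.47 and 1.11% in WT and at 0, 23.0, 13.4, 7.47 and 18.2% in cKO. The first intron of a short transcript held 9 of the cKO peaks. The strongest cKO member, chr12:108105788-108106373 (586 bp, −log10 q 16.7), lay just past the 3′ end of the RefSeq span, so the 24 cKO members gave 23 peaks over the body. In the length-matched list no cKO peak was left in Setd3. Its start overlaps the neighbour Ccnk by 38 bp, and peaks covered 8.33% of the 10 kb before Setd3 in WT and 46.5% in cKO.

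Smyd2 and Setmar had no WT peak and few cKO peaks. Of all genes of at least 5 kb, 14.7% likewise had a peak in cKO alone. Smyd2 on chromosome 1 (189880492 to 189922495, minus strand, 42004 bp) had 4 cKO peaks, 3 of them in intron 5 of 11 and 1 in intron 1, over 3.17% of the body. The widest and strongest was chr1:189895759-189896176 (418 bp, pileup 26, −log10 q 9.71). Setmar on chromosome 6 (108065045 to 108077127, plus strand, 12083 bp) had 1 cKO peak, chr6:108076670-108077050 (381 bp, pileup 20, −log10 q 5.69), over 3.15% of the body. It lay 11.8 kb from the 5′ end and was classed as a transcription termination site. None of the 5 peaks was among the 36820 strongest of the cKO list, and their −log10 q values lay below the cKO median of 10.2. The 10 kb on either side of both genes held no peak.

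The pooled coverage of the 8 genes was weighted to the 3′ end in both genotypes, while single genes differed, as the plot of the 5 parts shows. Pooled over the 8 genes, parts 1 to 5 were covered over 2.16, 1.96, 4.63, 6.28 and 14.4% in WT and over 8.37, 22.9, 25.96, 36.3 and 52.9% in cKO. Part 5 held 49.0% of the covered bases in WT and 36.2% in cKO. The mean over 5213 genes with a WT peak climbed from 1.27 to 13.1% in WT and from 7.60 to 48.9% in cKO. That mean counts each gene alike, while the pooled values count bases and include Smyd2 and Setmar, which had no WT peak. The 2 measures are thus unlike, and the shares held by part 5 have no background beside them. Setd3 had its highest part at 2 in both genotypes and Setd2 at 2 in cKO, and parts 4 and 5 held 41.3% and 44.8% of their cKO covered bases. In part 1, Nsd1 was covered over 5.58% in WT and 38.3% in cKO, while Nsd2, Nsd3 and Ash1l were at or near 0 in both.

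**Figure D3:**
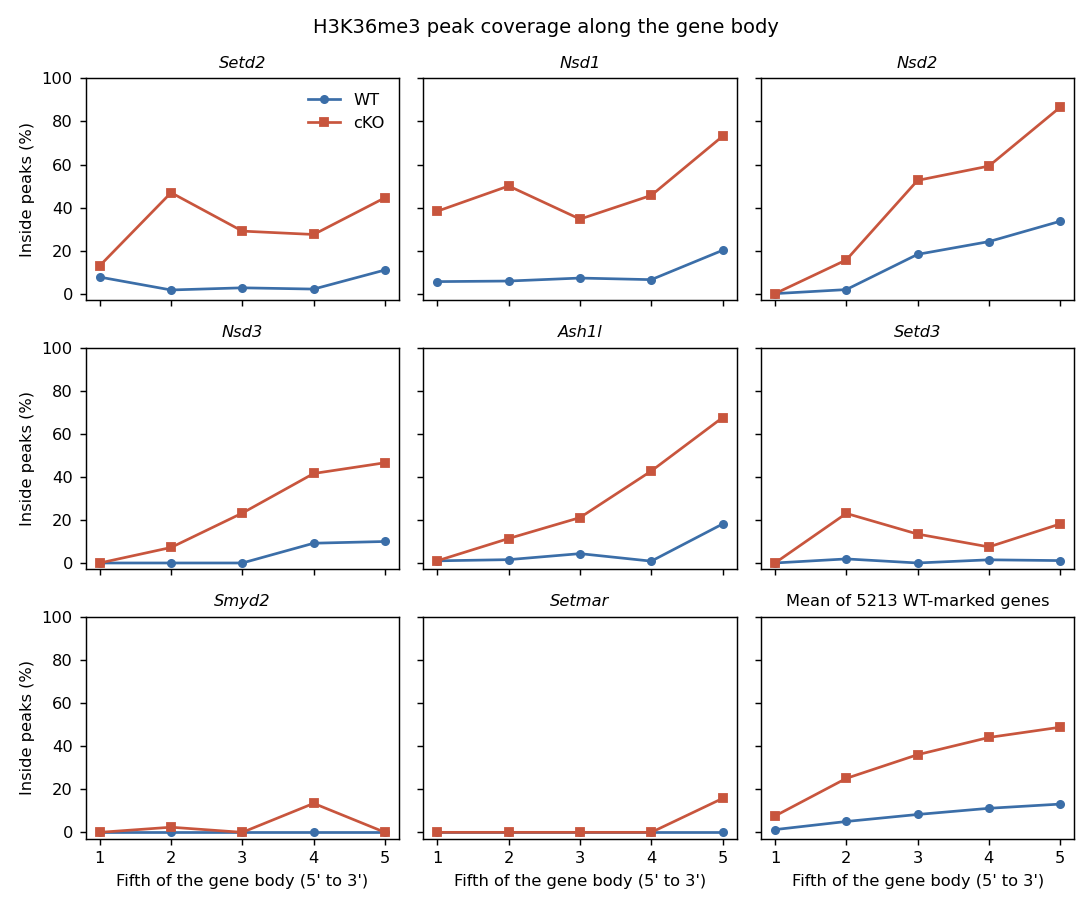
Percentage of each of 5 equal parts of the gene body inside H3K36me3 peaks, from the 5′ end (left) to the 3′ end (right), for the 8 genes and, in the last panel, as the mean of 5213 genes with a WT peak. Circles are WT and squares cKO, 1 ChIP library each; part 5 is the highest in both genotypes for Nsd1, Nsd2, Nsd3 and Ash1l, while the cKO line of Setd2 peaks in part 2.

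The 10 kb past the 3′ end held peaks in both genotypes for the 3 NSD genes. They were covered over 18.9% in WT and 40.5% in cKO for Nsd2, over 11.7 and 49.3% for Nsd3 and over 8.23 and 43.8% for Nsd1. For Setd2, Ash1l and Setd3 they held no WT peak and were covered over 25.99, 22.6 and 5.86% in cKO. The 10 kb before the gene held no peak except at Ash1l and Setd3, which each overlap a neighbour at the start. Peaks in these flanks can belong to neighbouring genes, and that was not tested.

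Nearly every WT site in these genes also had a cKO peak. All 55 WT members were overlapped by a cKO peak (100%, exact Clopper-Pearson 95% interval 93.5 to 100%), against 96.0% of the whole WT list. Of the 175 cKO members, 46 were overlapped by a WT peak (26.3%, 19.9 to 33.5%), against 25.3% of the whole cKO list. Both shares lay near those of the whole lists, and the intervals cover counting error only. Over the gene bodies, 16 cKO peaks each overlapped 2 or more WT peaks: 5 in Nsd1, 5 in Ash1l, 4 in Nsd2 and 1 each in Setd2 and Nsd3. The share of such peaks in the whole cKO list was not computed, so this count has no background.

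Within the cKO list, peaks with a WT partner had the larger median width and pileup, though in Setd3 the median pileup went the other way. A wide peak is likelier to touch a WT peak by 1 bp, so the difference in width is partly set by the overlap rule. The 83 cKO peaks over the gene bodies with a WT partner had a median width of 798 bp, a median pileup of 36 and a median −log10 q of 19.5. The 201 without a partner had 381 bp, 23 and 9.71. The whole cKO list showed a like split, with median widths of 1011 and 356 bp.

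The median width was larger in cKO for every gene marked in WT but Setd2. Over the gene bodies the median width was 290 bp in WT (quartiles 194 and 434) and 471.5 bp in cKO (quartiles 276 and 784). Peaks over 1 kb numbered 3 in WT and 49 in cKO, and peaks over 2 kb numbered 0 and 10. The shares of such wide peaks in the whole lists were not computed. Gene medians were 241 and 614 bp in Nsd1, 314.5 and 561 bp in Nsd2, 250.5 and 496 bp in Nsd3, and 258 and 326 bp in Ash1l. In Setd2 the medians were 464 bp in WT and 447 bp in cKO, so its higher cKO coverage came with more peaks and not with a larger median width. Its wide peaks still differed: those over 1 kb numbered 1 in WT and 7 in cKO, and the widest were 1324 and 2466 bp. The modelled fragment length, 152 and 185 bp, moves with these widths, and its part was not tested.

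**Figure D4:**
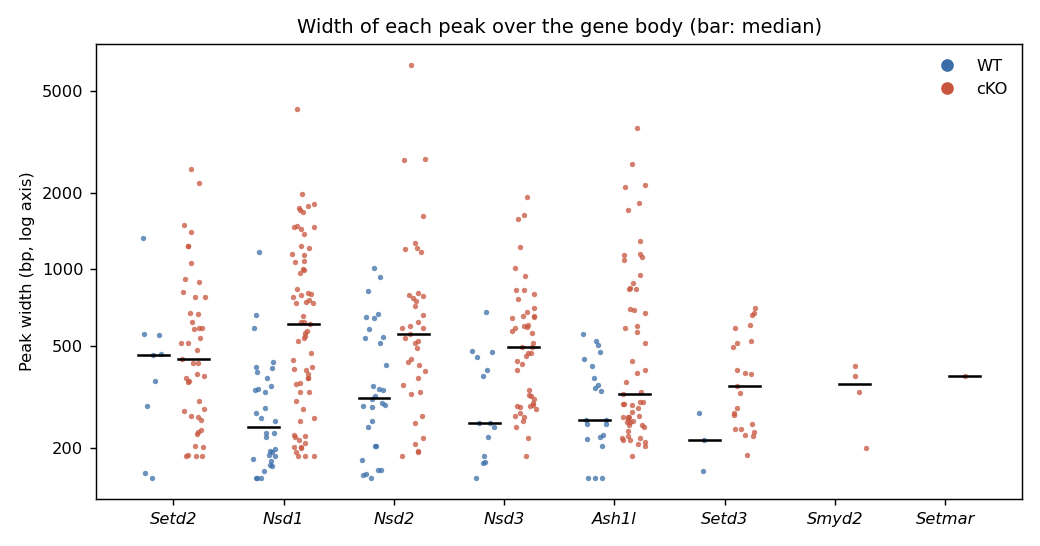
Width in bp, on a log axis, of every H3K36me3 peak over the 8 gene bodies, 1 point per peak and a bar at the median, WT beside cKO, with 1 ChIP library per genotype. The widest cKO peaks, up to 6347 bp in Nsd2, lie above every WT peak, of which the widest is 1324 bp in Setd2.

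By the annotation's classes, introns held 54.5% of the WT members (interval 40.6 to 68.0%) and 72.6% of the cKO members (65.3 to 79.0%). The whole genic lists had 50.9% and 64.0%, so the members moved the same way as the lists. These intervals treat peaks as independent, though the cKO members lay in 8 genes of 1 library. No difference from the lists can be read from them. Exons held 23.6% of the WT and 13.7% of the cKO members, against 23.3 and 16.1% of all genic peaks. Termination sites held 9.09% of the WT (3.02 to 19.95%) and 9.14% of the cKO members (5.32 to 14.4%), against 17.9 and 14.3% of the lists. The 7 WT and 8 cKO members classed as promoter lay inside the genes, at starts of other transcripts, since no peak touched the RefSeq starts.

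Local input background differed between the lists as well. The caller's fold is taken over the larger of a genome-wide and a local background. Recovered from pileup and fold, the local one was the larger for 17.4% of the WT and 41.9% of the cKO peaks over these genes. Over the whole lists these shares were 20.5 and 50.7%. The name of the cKO input in the file header carries 2 numbers, and no source used here says whether it pools inputs. How far the inputs shape the peaks of these genes was not tested.

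The order of WT coverage was Nsd2 (15.6%), Nsd1 (9.06%), Ash1l (5.17%), Setd2 (5.03%), Nsd3 (3.83%) and Setd3 (0.894%), with Smyd2 and Setmar at 0. In cKO it was Nsd1 (48.4%), Nsd2 (42.8%), Setd2 (32.2%), Ash1l (28.8%), Nsd3 (23.7%), Setd3 (12.4%), Smyd2 (3.17%) and Setmar (3.15%). With no replicate, whether neighbours in these orders differ cannot be tested. The 3 genes nearest to Setd2 in both coverages, among 1658 genes within 25% of its length, were Myo9b (4.69 and 32.1%), Cdk12 (4.52 and 32.4%) and Slc12a7 (5.43 and 31.8%). This likeness rests on 2 libraries.

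Other genes of H3K36 methylation were read from fixed lists. Of 15 genes for H3K36 methyl readers, 13 had a WT peak and 15 a cKO peak. The 10-point rule called 11 of the 14 long enough for it higher in cKO, beside 32.6% of all genes and 75.3% of those with a WT peak. Of 6 demethylase genes, 3 were higher, led by Kdm4a (39.4% in WT and 84.4% in cKO) and Kdm4b (8.08 and 42.7%), which encode erasers of H3K9 and H3K36 methylation. Of 7 genes for SETD2 recruitment and elongation, 6 were higher. The largest differences there were in Iws1 (4.49 and 48.8%), whose product binds the elongation factor SPT6, and in Ctr9 (15.8 and 57.0%), a subunit of the PAF1 complex.

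These lists had higher WT coverage than the methyltransferase genes or about the same. The median WT coverage was 4.43% over the 8 methyltransferase genes, 7.04% over the readers, 4.05% over the demethylases and 28.2% over the elongation list. The median differences were 21.7, 36.7, 14.6 and 36.6 points. Gene length differed too, with medians of 81.7, 30.8, 80.2 and 24.6 kb in the same order. Median WT coverage was 1.92% over genes of 40 to 130 kb with a WT peak. Over all genes of at least 5 kb with a WT peak it was 3.96%. How far length accounts for the differences between the lists was not tested. No member of any of these lists was lower in cKO. In the length-matched list the median differences were 0, −2.68, 0.431 and 6.04 points. In each of the 3 other lists 1 gene then remained higher by 10 points, beside 4.81% of all genes. They were the reader Brd1 (24.4 points), Kdm4a (27.2) and the SPT6 gene Supt6 (28.8). The reader gene Psip1 stood at −17.5 points, the 1 reader lower by 10 points, beside 2.21% of all genes. Both shares are over all genes, many with no peak, and were not computed over genes with a WT peak. The readers Glyr1 (16.6 and 76.0%) and Brpf1 (21.1 and 70.7%), with the largest differences of their list, stood at −2.68 and −4.77 points.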

How the data were processed

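H3K36me3 was measured in E13 forebrain progenitors by 4 libraries, 1 ChIP and 1 input per genotype. The submitters' processing notes name Bowtie2 2.2.9, FastQC, bedtools, MACS2 2.1.0 and the build mm10. The headers of the lists give MACS version 2.1.1.20160309, a p cutoff of 1e-05 and tags of 150 bp. The deposited lists give each peak's pileup signal, its fold enrichment (a ratio over local input), and the −log10 of its p-value and q-value. Although the headers say q was left out, the deposited column holds positive values, which served here to rank peaks. A second deposited table annotates each peak, with starts 1 bp higher than in the lists, whose positions are used. No source used here names the annotation tool.

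Computed from these files were member counts, overlaps of at least 1 bp, and coverage by merged peaks of RefSeq protein-coding spans of GRCm38.p6, whose positions were not screened further. Spans of at least 5 kb entered the counts. The strand came from RefSeq promoter windows or from the order of numbered introns and exons. Intervals are exact Clopper-Pearson at 95%, and the interval functions were tested on simulated data. Coverage grows with tags and enrichment, since narrow calling splits a broad mark. Depth was 31984670 and 32927164 ChIP tags. The alternatives were a stricter q or fold, a cKO list matched to WT in number (36820 peaks) or in covered length (5308 peaks), joining within 3 kb, body overlap, reciprocal overlap and other sizes of difference. Python 3.11.15, pandas 2.3.3, numpy 2.4.6, scipy 1.17.1 and matplotlib 3.10.9 were used.

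The genes, lists and rules were chosen with earlier results of these data known. Named were every methyltransferase gene, its widest member and that with the largest −log10 q in each list, the WT peaks without a partner, the 2 genes of each other list with the largest difference, and the 3 genes nearest to Setd2. Other peaks over the bodies, the genes with no peak and those named for their length-matched values were chosen after their values were seen.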

Additional observations from a re-analysis of the deposited data

How the results depend on the processing

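When peaks were kept at a minimum −log10 q of 5 or a minimum fold of 4, or were joined within 3 kb, no gene turned direction. Joining gave larger differences for Setd2 (58.6 points), Nsd1 (57.7), Nsd3 (43.1), Ash1l (38.3), Setd3 (32.2) and Smyd2 (7.51), and a median of 35.3. The Nsd2 difference was smaller after joining, at 20.2 points against 27.3, and Setmar stayed at 3.15. At either minimum, 5 genes in place of 6 had a member in both genotypes. Setd3 had no WT peak left at the q minimum. At the fold minimum, Setd3 (8.12 points) dropped under 10 points, Setmar lost its peak and 95.8% of the WT members were overlapped by a cKO peak. Assigning peaks by overlap with the gene body gave 109 WT and 284 cKO peaks in place of 55 and 175. The number-matched cKO list held 66 members, with 76.4% of WT and 50.0% of cKO members overlapped, and Nsd3 (7.27 points) and Setd3 (1.22 points) under 10 points and a median of 10.7. The length-matched list held 12 cKO members, 3 genes with a member in both genotypes, 27.3% of WT and 100% of cKO members overlapped, 0 genes called and a median difference of 0. Setd2 (0.0163 points), Nsd2 (4.49) and Ash1l (1.21) then kept their direction, and Nsd1 (−5.16), Nsd3 (−1.83) and Setd3 (−0.894) turned. Smyd2 and Setmar had no peak in either matched list. Fewer and stronger cKO peaks are the construction of these reduced lists. Asking for 50% of both peaks to overlap, 36.4% of the WT members and 11.4% of the cKO members were shared. The overlap shares of the whole lists were not computed under these altered settings. None of the altered shares can therefore be read as particular to these genes. With 20 and 5 points as the size of a difference, 4 and 6 genes were higher, against 22.8 and 39.1% of all genes. Many of all genes had no peak, and the shares over genes with a WT peak were not computed at these sizes. No paired analysis was possible because each genotype had 1 ChIP library. A gene without a peak is a gene below the threshold of its library, and similar tag numbers do not show equal enrichment.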

Other observations

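SET-domain genes outside the methyltransferase list were marked to differing degrees. Of 19 genes for enzymes of other histone residues, such as the H3K4 methyltransferases and Polycomb's Ezh2, 15 had a peak in WT and 19 in cKO, and 16 were higher in cKO by 10 points, beside 32.6% of all genes and 75.3% of those with a WT peak. The median difference was 29.1 points. With the length-matched list it was 0 points. By that list 6 of the 19 were higher and 1, Kmt5a (−10.6 points), was lower by 10 points, beside 4.81% and 2.21% of all genes. Those shares include genes with no peak and were not computed over genes with a WT peak. The counts of 6 and 1 thus have no nearer background beside them. The 6 were Kmt2d (34.9 points), Setd1a (25.7), Kmt2b (20.2), Kmt2a (14.6), Ehmt2 (11.5) and Setd1b (10.02). Setdb1, which methylates H3K9, had 15.3% coverage in WT and 68.4% in cKO, and Setd1a, which methylates H3K4, had 31.6 and 84.5%. Of 9 related SET genes reported or proposed for H3K36 or other substrates, 5 were marked in each genotype and 5 were higher. Setd6, which methylates the RelA subunit of NF-kappaB, had 16.6 and 60.6%, but no cKO peak in the length-matched list. Setd5 had 5.63 and 35.98%. Prdm9, which trimethylates H3K4 and H3K36 in meiosis, and Smyd1, a gene of heart and skeletal muscle, had no peak in either genotype, nor had Smyd3 and Smyd4. Setd7 is in both of these lists.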
